A study of Mus musculus with 12 samples.

Results

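The genes described here are 9 genes of V(D)J recombination and of the CD4+CD8+ double-positive (DP) stage of thymocyte development, taken by symbol from the 50600 genes counted in every library. They are the recombinase genes Rag1 and Rag2, the terminal transferase gene Dntt, the end-joining genes Lig4, Xrcc4 and Dclre1c, and the DP stage genes Themis, Arpp21 and Cd1d1. Of the 9, 8 had enough reads to be tested, and Rag1 was listed at 0 in all 12 libraries.

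RNA was sequenced from 12 mice, 3 in each of 4 groups, on a mixed C57Bl/6 and SV/129 background. Ctrl libraries are thymocytes of mice with a loxP-flanked Dnmt1 gene (Dnmt1 fl/fl) and no Cre, aged 20 to 25 wk. KO libraries are thymocytes of Dnmt1 fl/fl mice with Cd4-Cre, aged 20 to 21 wk, in which Cre acts from the stage at which thymocytes switch on Cd4, so that earlier progenitors and non-T cells keep the gene. ALK libraries are T cell lymphoma cells, from mice of 22 to 31 wk, that carry the human fusion kinase NPM-ALK under the Cd4 enhancer and promoter. ALKKO libraries are thymocytes of NPM-ALK+ Dnmt1 fl/fl mice with Cd4-Cre, aged 19 to 25 wk. Mice are named by group and number (KO2), and KO2 was the only female. The paper describes ALK mice as Cd4-NPM-ALK, with no Cd4-Cre named. The ALK group thus differs from ALKKO in Dnmt1 genotype, in Cd4-Cre and also in being a tumor, and these cannot be told apart here. The age ranges of ALK and ALKKO differ as well. RNA came from homogenised tissue, and in such bulk samples fewer cells of a type and less RNA per cell cannot be told apart.

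V(D)J recombination assembles antigen receptor genes from separate gene segments. RAG1 and RAG2 together cut the DNA beside the segments, DCLRE1C (Artemis) opens the hairpins left at the coding ends, TdT, the product of Dntt, adds nucleotides without a template, and DNA ligase IV with its partner XRCC4 seals the joint. In the thymus the Rag genes are active in double-negative (DN) progenitors, which assemble the T cell receptor beta chain, and again in DP cells, which assemble the alpha chain. THEMIS acts in T cell receptor signaling when DP cells are selected, ARPP21 is an RNA-binding protein abundant in DP thymocytes, and CD1d1 presents lipids on DP cells to the precursors of invariant natural killer T (iNKT) cells.

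Promoter windows were taken from RefSeq on GRCm38.p6 for 8 of the 9 genes, Cd1d1 being the exception. The 250 bases before the start of Rag1, Rag2 and Dntt are shown because the recombinase gene that could be measured and Dntt took different courses in the lymphomas. They lie at chr2:101649533-101649782 on the minus strand, chr2:101624462-101624711 on the plus strand and chr19:41029025-41029274 on the plus strand. Capitals mark matches on either strand to 3 motifs. The E box, the element bound by E proteins, was searched as CANNTG. RUNX factors were represented by the letters TGTGGT, and 1 such match overlaps an E box in the Rag1 window. For the GATA factors the letters searched were AGATAA.
Rag1: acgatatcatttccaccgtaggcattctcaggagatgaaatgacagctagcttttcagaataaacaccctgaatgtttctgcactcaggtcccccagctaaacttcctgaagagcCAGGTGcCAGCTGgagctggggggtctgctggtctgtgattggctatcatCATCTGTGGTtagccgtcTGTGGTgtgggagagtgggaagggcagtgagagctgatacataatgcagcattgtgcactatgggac
Rag2: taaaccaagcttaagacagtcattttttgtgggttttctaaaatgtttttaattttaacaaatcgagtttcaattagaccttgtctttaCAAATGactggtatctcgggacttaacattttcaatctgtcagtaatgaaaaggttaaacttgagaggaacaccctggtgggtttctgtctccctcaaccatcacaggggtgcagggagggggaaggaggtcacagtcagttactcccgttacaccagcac
Dntt: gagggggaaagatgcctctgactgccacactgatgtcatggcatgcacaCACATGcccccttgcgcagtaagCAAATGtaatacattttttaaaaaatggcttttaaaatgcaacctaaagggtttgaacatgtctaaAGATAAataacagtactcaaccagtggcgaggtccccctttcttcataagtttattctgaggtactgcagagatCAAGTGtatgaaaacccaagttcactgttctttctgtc
The Rag1 window held 3 E boxes and 2 RUNX matches, the Rag2 window 1 E box, and the Dntt window 3 E boxes and 1 GATA match. Of 32851 promoter windows of this length, 66.2% held an E box, 14.1% the RUNX letters and 9.99% the GATA letters. CpG dinucleotides, the sites that DNMT1 methylates, numbered 3 in the Rag1 window, 3 in the Rag2 window and 2 in the Dntt window, against a median of 6 over all windows. The window of Xrcc4 held 26 CpGs, those of Lig4 held 27 and 28, and that of Dclre1c held 8. A match to these letters is a description of the sequence and not evidence of binding.

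Rag1 could not be measured in these counts. The gene lies at chr2:101638282-101649501 on the minus strand, entirely inside the longer gene B230118H07Rik (chr2:101560781-101649532, same strand), whose exons it overlaps. Of 167 protein-coding genes placed in this way, 98.8% were at 0 in all 12 libraries, as were 99.2% of 244 that lie inside a gene of the same strand without sharing exons, against 13.2% of 20571 that lie inside no other gene. A read that falls on more than 1 gene is set aside by the counting as ambiguous, and this class held 1.38% to 2.83% of the reads. The 0 of Rag1 therefore says nothing about its RNA. The 12.9 to 55.9 CPM (read counts scaled to a common library size, TMM normalized) of B230118H07Rik in thymus libraries and 9.93 to 37.3 CPM in lymphomas are not a substitute. Rag2 lies at chr2:101624718-101632529 on the opposite strand of the same host gene and was counted, with 47526 reads in all.

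Before the results, the library KO2 has to be set apart. It had the lowest value among the 9 thymus libraries for 7 of the 8 measured genes, Cd1d1 being the exception. Rag2 stood at 81.9 CPM in KO2, which is 25.5% of the mean of KO1 and KO3. Dntt stood at 24.6%, Arpp21 at 27.9%, Themis at 37.2%, Lig4 at 38.0%, Dclre1c at 50.1%, Xrcc4 at 53.7% and Cd1d1 at 89.8% of that mean. All 11 other DP stage genes listed for comparison and 8 of 9 T cell markers were also below all 8 other thymus libraries. The 8 B cell markers summed to 1632 CPM in KO2 against 54.0 to 90.8 CPM in the others, and 6 of the 8 lay above the 8 other thymus libraries, while Vpreb1 and Igll1, markers of B cell precursors, stood at 0.344 and 0.172 CPM there. The 6 markers of mature single-positive T cells and the 6 myeloid markers with reads were all above the other thymus libraries, and all 7 thymic epithelial markers were below them. So were all 6 cycling markers, while all 5 stromal and vessel markers were above. All 3 plasmacytoid dendritic cell markers were above as well, and of 8 DN progenitor markers 5 were above and 2 below. Of 13 other end-joining and recombination factors, 3 were above and 7 below. Of 9 transcription factors linked to Rag transcription, 1 was above and 8 were below. Of 7 genes of CD1d presentation and iNKT cells, 1 was above and 4 were below. Such positions were not counted over all genes, so they are read as a trait of the library and not of the 8 measured genes. The part of this mixture in the KO values was not tested, and the differences that involve KO are given with and without KO2.

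**Figure D1:**
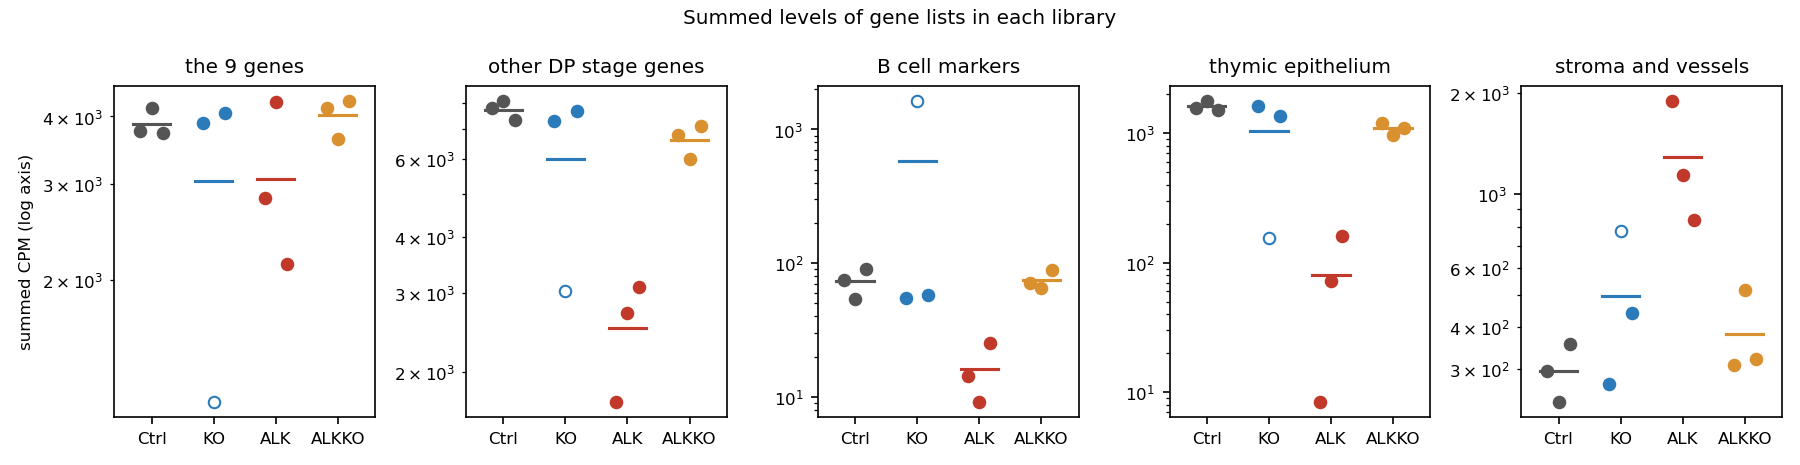
Summed CPM (log axis) of 5 gene lists in each library, 1 point per mouse, with KO2 as the open symbol and a line at the group mean. KO2 stands alone among thymus libraries in B cell markers (1632 CPM), and the ALK libraries are low in other DP stage genes and thymic epithelium (8.33 to 159 CPM).

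The other checks followed the labels. Libraries held 12473857 to 18864327 reads on genes, so that 3 counts equal 0.159 to 0.241 CPM. Dnmt1 ranged over 400 to 487 CPM in Ctrl, 379 to 788 in ALK, 206 to 244 in KO and 205 to 244 in ALKKO. Reads on Alk were at 34.9 to 55.0 CPM in all NPM-ALK+ libraries and at most 0.431 CPM in the others. Of 9 T cell markers, 8 were lower in every lymphoma than in every control and Cd2 overlapped. Cd3e (308 to 399 CPM), Thy1 (955 to 1480 CPM) and Lck (1235 to 1703 CPM) were still abundant in ALK. Cd5 was at 0.786 to 2.22 CPM in ALK against 231 to 275 in Ctrl, Cd3d at 212, 2.27 and 13.5 CPM, and Trac, the alpha chain constant segment of the T cell receptor, at 5.85, 6.55 and 298 CPM.

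To find out which of these genes differ between lymphoma and thymus, ALK was compared with Ctrl. Rag2 fell about 9-fold, while Dntt, Arpp21, Lig4 and Dclre1c overlapped between the groups. Of the 8 genes tested, 1 was called lower (Benjamini-Hochberg adjusted p from edgeR's quasi-likelihood fit under 0.05, and a log2 fold change beyond 1 in size) and 0 higher. Over all 16052 genes tested, 12% were called lower, 8.41% higher and 20.4% in either direction. The share of these genes called was therefore near the background, and no shift of the set as a whole is read from it. The median log2 fold change of the 8 was -0.22, against 0.05 over all genes tested.

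**Figure D2:**
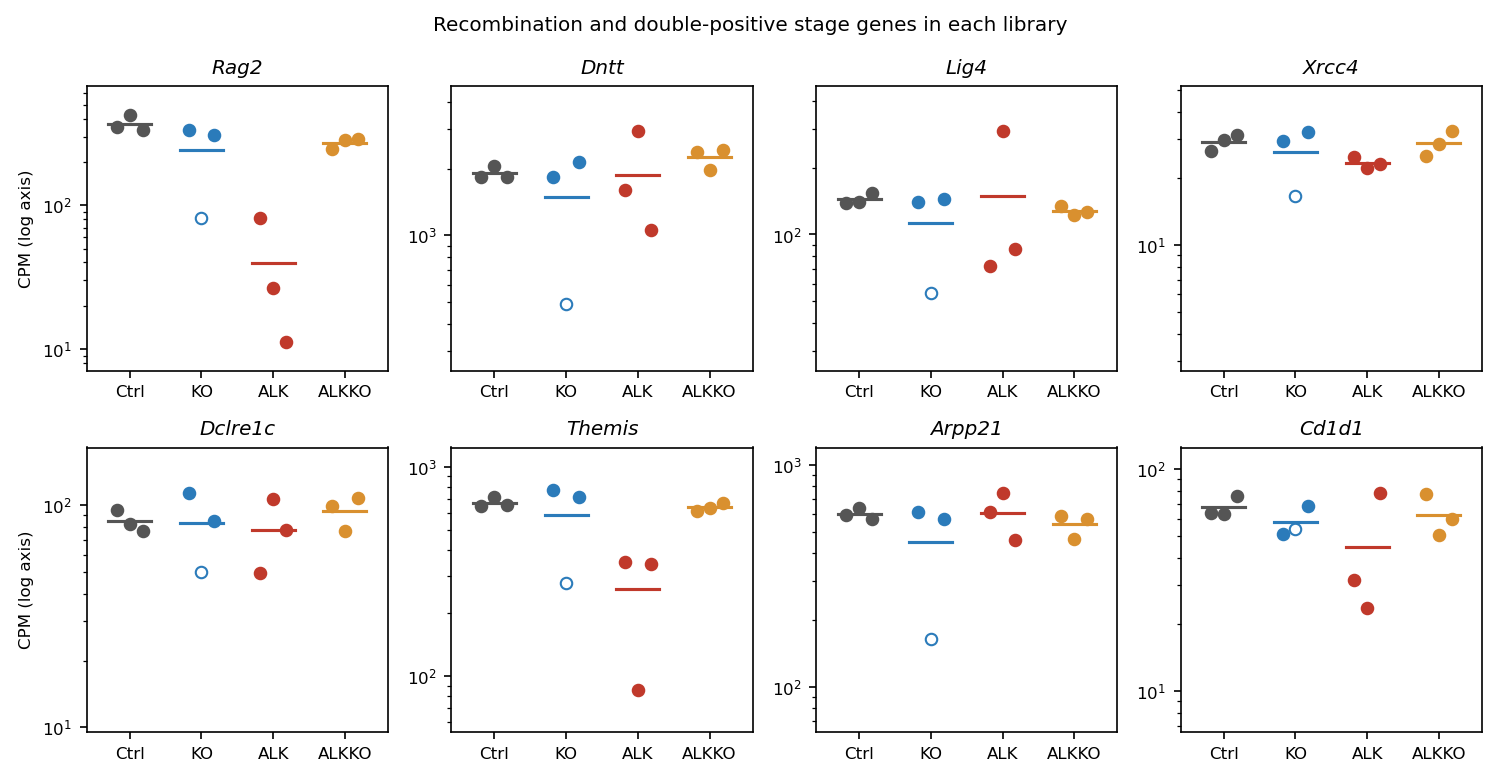
CPM (log axis) of the 8 measured genes in each library, 1 point per mouse, with the group mean as a line and KO2 as the open symbol. Rag2 and Themis lie lower in every ALK library than in every Ctrl library, and Dntt and Arpp21 overlap.

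Rag2 had 349, 422 and 335 CPM in Ctrl and 82.1, 26.5 and 11.3 CPM in ALK. Every lymphoma was below every control, and the lymphomas also differed among themselves by 7.29-fold, against 1.26-fold in Ctrl. The fall was 9.22-fold, a log2 fold change of -3.20 (SE 0.69, 95% confidence interval -4.72 to -1.69, adjusted p = 0.00713 by edgeR). It was called under all 21 alternatives, and without ALK1, the lymphoma with the highest value, the log2 fold change was -4.28.

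Dntt, which marks DN and DP thymocytes, had 1841, 2061 and 1828 CPM in Ctrl and 1605, 2942 and 1054 CPM in ALK. The lymphoma ALK2 had the highest Dntt of all 12 libraries and ALK3 the lowest outside KO2. The log2 fold change was -0.03 (SE 0.48, interval -1.10 to 1.03, adjusted p = 0.967 by edgeR), an interval that leaves room for a change of about 2-fold in either direction. The groups overlapped.

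The changes of Rag2 and Dntt were unequal within single libraries. Rag2 CPM as a percent of Dntt CPM was 19.0, 20.5 and 18.3 in Ctrl and 5.11, 0.899 and 1.07 in ALK. KO2 stood at 16.7, close to the 18.1 and 14.5 of KO1 and KO3, so its low Rag2 and low Dntt moved together. In ALK the ratio was 11.3-fold lower than in Ctrl with no overlap, by an exact two-sided permutation test of log2 ratios p = 0.1, the smallest that 3 mice against 3 allow (0.167 after Benjamini-Hochberg adjustment over 25 ratio tests). In ALKKO the ratio was 10.5, 14.4 and 11.9, between Ctrl and ALK. It was 1.58-fold lower than in Ctrl and 7.14-fold higher than in ALK. In KO the ratio was also lower than in Ctrl, 1.18-fold, and that of ALKKO was 1.35-fold lower than that of KO. Each of these differences was again without overlap and at p = 0.1 in the exact permutation test. Themis and Arpp21 as a percent of Dntt were also lower in ALKKO than in Ctrl without overlap, 1.24-fold and 1.31-fold, so the lower ratio there was not limited to Rag2. The ratios to Dntt share its values (2365, 1975 and 2419 CPM in ALKKO) and are not independent. Rag2 as a percent of Themis, which leaves out Dntt, was also lower than in Ctrl without overlap. It was 1.28-fold lower in ALKKO, 1.44-fold in KO and 4.10-fold in ALK, each at p = 0.1 in the exact permutation test. In KO this percent was 43.1 in KO1, 29.6 in KO2 and 43.1 in KO3, against 40.2 to 44.9 in ALKKO. The larger fall in KO than in ALKKO thus rested on KO2. These ratios were chosen after the values were seen, and since CPM is not per length they are read only between libraries.

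**Figure D3:**
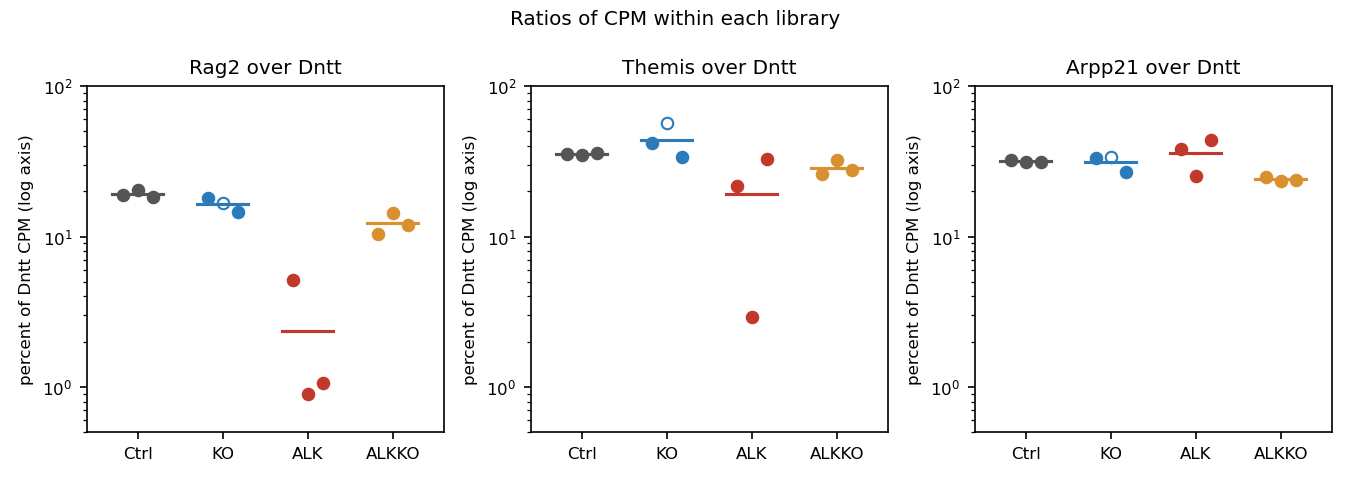
CPM of Rag2, Themis and Arpp21 as a percent of Dntt CPM in the same library (log axis), 1 point per mouse, with the group mean as a line and KO2 as the open symbol. The Rag2 ratio is 18.3 to 20.5 in Ctrl, 14.5 to 18.1 in KO, 10.5 to 14.4 in ALKKO and 0.899 to 5.11 in ALK. The Arpp21 ratio of ALK overlaps that of Ctrl.

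The end-joining genes had no call. Lig4 had 139, 140 and 153 CPM in Ctrl and 71.8, 292 and 86.1 CPM in ALK. ALK1 and ALK3 were below every control and ALK2 had the highest value of all 12 libraries, so that the log2 fold change of 0.06 (SE 0.49), whose sign also turned under upper-quartile scaling, became -0.89 without ALK2 (adjusted p = 0.0938 by edgeR). Xrcc4 had 26.5, 29.6 and 31.5 CPM in Ctrl and 24.9, 22.3 and 23.2 CPM in ALK. The Xrcc4 groups did not overlap, but the difference was small, -0.31 in log2 (SE 0.23, interval -0.83 to 0.20, adjusted p = 0.334 by edgeR). Dclre1c had 95, 82.2 and 76.5 CPM in Ctrl and 49.3, 107 and 77.0 CPM in ALK. The groups overlapped, at -0.12 in log2 (SE 0.32, adjusted p = 0.797 by edgeR).

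Of the DP stage genes, Themis was lower in every lymphoma and missed the threshold. It had 648, 713 and 656 CPM in Ctrl and 349, 86.1 and 344.4 CPM in ALK, the lowest of all 12 libraries being ALK2. The log2 fold change was -1.37 (SE 0.48, interval -2.44 to -0.30, adjusted p = 0.0551 by edgeR). Over the 21 alternatives the adjusted p ranged from 0.0136 to 0.115 and Themis was called in 8 of them, among them the fits without KO2 (adjusted p = 0.0265 by edgeR) and without ALK1 (adjusted p = 0.0474 by edgeR). Without ALK2 the log2 fold change was -0.98 (adjusted p = 0.0778 by edgeR).

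Arpp21 had 592, 643 and 571 CPM in Ctrl and 611, 748 and 460 CPM in ALK, and the groups overlapped. The difference in log2 was 0.01 (SE 0.39, interval -0.85 to 0.87, adjusted p = 0.987 by edgeR), and its sign turned under both other scalings. As with Dntt, the highest value was that of ALK2 and the lowest outside KO2 that of ALK3.

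Cd1d1 depended on 1 lymphoma. It had 63.8, 62.7 and 75.7 CPM in Ctrl and 31.8, 23.8 and 78.4 CPM in ALK, where ALK3, from the oldest mouse, had the highest value of all 12 libraries. The log2 fold change was -0.59 (SE 0.37, adjusted p = 0.248 by edgeR) and became -1.29 without ALK3 (adjusted p = 0.00358 by edgeR) and -1.26 with age as a covariate (adjusted p = 0.0158 by edgeR). Cd1d2, a near-identical neighbour with which reads can be shared and then stay uncounted, spanned 24.7 to 34.3 CPM in Ctrl against 3.84 to 16.5 CPM in ALK, so both values are uncertain.

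Apart from Rag2, Themis and Xrcc4, the lymphomas thus did not all lie on the same side of Ctrl. ALK2 held the highest Dntt, Arpp21 and Lig4 of all 12 libraries together with the lowest Themis and Cd1d1. ALK3 held the lowest Rag2 and the highest Cd1d1, and ALK1 the highest Rag2 of the lymphomas. The ratio of the highest to the lowest lymphoma was 7.29 for Rag2, 4.06 for Lig4, 4.05 for Themis, 3.29 for Cd1d1, 2.79 for Dntt, 2.16 for Dclre1c, 1.63 for Arpp21 and 1.12 for Xrcc4. Among controls it was 1.10 to 1.26.

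Groups that do not overlap were found for 3 of the 8 genes (Rag2, Themis and Xrcc4), all of them lower in ALK, where 25.1% of all genes tested were lower and 46.4% were lower or higher without overlap.

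The other genes of the pathway, from lists set for this comparison, gave these counts in ALK against Ctrl. Of 13 other end-joining and recombination factors, 1 rose and 0 fell, with a median log2 fold change of 0.54 against 0.05 over all genes. The riser was Xrcc5, which encodes the KU80 subunit of the DNA end sensor, at 31.6 to 40.6 CPM in Ctrl against 68.7 to 92.5 CPM in ALK. Its log2 fold change was 1.12 (SE 0.17, adjusted p = 0.00155 by edgeR, called in 19 of 21 alternatives). It kept its direction in the exceptions, without Ctrl1 and without ALK2, with a lowest log2 fold change of 0.98. Its partner Xrcc6 (KU70) was at 412 to 645 CPM in Ctrl against 731 to 1348 CPM in ALK and had an adjusted p of 0.087 by edgeR. Prkdc, the catalytic subunit of DNA-PK (log2 fold change 0.54), Trp53bp1 (0.58), Atm (0.71) and Paxx (-0.76) had an adjusted p under 0.05 but stayed below the fold threshold, where 29.5% of all genes had such an adjusted p.

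Of 9 transcription factors linked to Rag transcription, 1 rose and 2 fell. Satb1, a genome organizer that acts at the Rag locus in DP cells, spanned 2521 to 2936 CPM in Ctrl and fell to a span of 384 to 654 CPM in ALK (log2 fold change -2.35, SE 0.35, adjusted p = 0.00135 by edgeR). Ets1 fell by 1.04 on the log2 scale (SE 0.19), and without ALK1 by 0.93, which is under the fold threshold. Runx1 rose by 1.82 (SE 0.25). Gata3, Foxo1, Bcl11b, Ikzf1, Tcf3 and Tcf12 were not called, with log2 fold changes of -0.53 to 0.63.

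Of the 11 other DP stage genes, 5 fell, 1 rose and 5 were not called, with a median log2 fold change of -0.61. The coreceptor genes Cd8b1 (log2 fold change -6.31), Cd4 (-4.50) and Cd8a (-3.65) fell, as did Ccr9, a chemokine receptor (-4.95), and Bcl2l1, which encodes the survival protein BCL-XL (-2.79). Cd24a rose (1.53), with a call in 14 of 21 alternatives and groups that overlap through ALK1, and its call was lost without Ctrl1, Ctrl2, Ctrl3, ALK2 or ALK3 (highest adjusted p over all alternatives 0.0934, by edgeR). Cd8a was not called in the fit to the 6 libraries alone (adjusted p = 0.0522 by edgeR). Ptcra, the pre-T cell receptor alpha chain of the DN stage, was at 424, 142 and 32.5 CPM in ALK against 46.3 to 49.0 CPM in Ctrl (adjusted p = 0.0595 by edgeR). Endou, Aqp11 and Tespa1 had log2 fold changes of 0.11 to 0.21 and Cd27 of -0.61. The log2 fold changes of Rag2 and Themis lay below the median of this list and those of Dntt and Arpp21 above it.

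**Figure D4:**
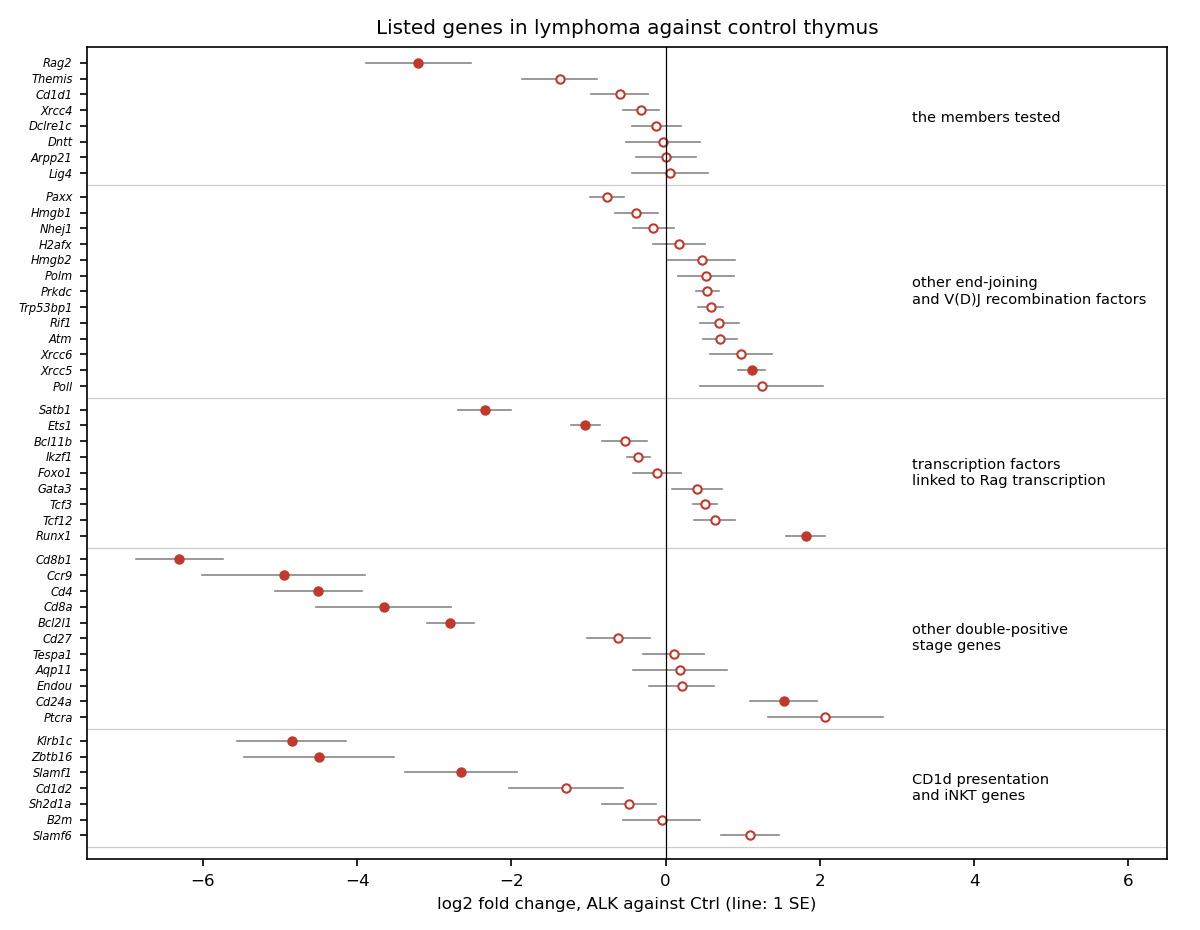
log2 fold change of ALK against Ctrl for each tested gene of 5 lists, with 1 SE as a line, filled where called. In the list of other DP stage genes, 5 genes lie from -6.31 to -2.79 and the others from -0.61 to 2.07.

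Of the 7 genes of CD1d presentation and iNKT cells, 3 fell. These were Slamf1 (log2 fold change -2.65), Zbtb16 (PLZF, -4.50) and Klrb1c (NK1.1, -4.85). Slamf1 was called in 17 of 20 alternatives that gave an adjusted p. Its call was lost without Ctrl1, without Ctrl3 and in the fit to the 6 libraries alone (highest adjusted p over all alternatives 0.0801, by edgeR). The other 4 were not called. Among them Slamf6 went the other way, at 152, 447 and 528 CPM in ALK against 168 to 184 CPM in Ctrl (log2 fold change 1.10). Zbtb16 and Klrb1c were below 1 CPM in all lymphomas. B2m, the light chain of CD1d, had a log2 fold change of -0.05.

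Marker lists of other cells moved with this comparison. The 7 thymic epithelial markers summed to 1506 to 1770 CPM in Ctrl against 8.33 to 159 in ALK, and 5 of 7 were called lower, with Psmb11 and Foxn1 at no more than 0.349 and 1.09 CPM in ALK. The 8 DN progenitor markers summed to 406 to 432 CPM in Ctrl against 1738 to 4259 in ALK, where 3 of 8 were called higher (Cd44, Notch1 and Hes1) and Il2rb lower. Notch1 (1084 to 4087 CPM in ALK) and Cd44 (53.6 to 1601 CPM) carried that sum, the median log2 fold change of the list was 0.69, and 4 of its 8 genes were below 0. The 5 stromal and vessel markers summed to 239 to 357 CPM in Ctrl against 836 to 1897 in ALK, where 2 of 5 were called higher (Col1a1 and Col3a1), and Pecam1, Pdgfra and Cdh5 overlapped Ctrl. The 9 T cell markers gave 6325 to 8081 in Ctrl against 3162 to 4522 in ALK, with 3 called lower, and the 6 cycling markers had 0 calls by edgeR (0 at an unadjusted p under 0.05). The 8 B cell markers summed to 54.0 to 90.8 CPM in Ctrl against 9.08 to 25.3 in ALK. Of the 7 B cell markers tested, 1 was called lower and 5 were lower without overlap. Of 3 plasmacytoid dendritic cell markers, 1 was called higher and 1 lower. The 6 mature single-positive T cell markers and the 6 myeloid markers tested had 0 calls. The part of all these lists in the changes of Rag2 and Themis was not tested.

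To ask what deletion of Dnmt1 does in thymocytes without the transgene, KO was compared with Ctrl. No gene of the 8 was called by edgeR, none had an unadjusted p under 0.05 (5.52% of all genes did), and none was called under any alternative, DESeq2 included, where 0.0187% of all genes were called by edgeR. Rag2 had 333, 81.9 and 310 CPM in KO, below every control, and a log2 fold change of -0.61 (SE 0.63), which was -0.20 without KO2. Dntt had 1841, 490 and 2135 CPM, with -0.36 (SE 0.48) and 0.06 without KO2. Themis changed from -0.19 to 0.15, Dclre1c from -0.03 to 0.24, Xrcc4 from -0.16 to 0.09, Arpp21 from -0.43 to -0.03, Lig4 from -0.35 to -0.01 and Cd1d1 from -0.22 to -0.17 when KO2 was left out. KO1 and KO3 differed from each other by at most 1.34-fold in any of the genes. The Rag2 values were the only ones of the 8 without overlap between KO and Ctrl, against 12.4% of all genes tested, with 6.24% of all genes lower.

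The NPM-ALK+ thymocytes that lack Dnmt1 gave no call against Ctrl among these genes, which does not show that the groups are alike. In ALKKO against Ctrl 0 of the 8 genes were called by edgeR or under any alternative, with 0 at an unadjusted p under 0.05 (0.181% of all genes were called and 3.18% had such a p), and log2 fold changes ran from -0.43 to 0.24. Rag2 had 247, 285 and 287 CPM in ALKKO, below every control, with a log2 fold change of -0.43 (SE 0.63, interval -1.83 to 0.96). Lig4, at 134, 122 and 126 CPM, was also below every control, and these were the 2 of 8 without overlap, against 17.5% of all genes tested, with 7.56% of all genes lower. Dntt had 2365, 1975 and 2419 CPM, Themis 615, 634 and 667 CPM and Arpp21 589, 465 and 572 CPM, each overlapping Ctrl. In ALKKO against KO, 0 of 8 were called by edgeR (0 at an unadjusted p under 0.05, 0 under any alternative, 0.00623% of all genes called, 2.69% at such a p), all 8 overlapped, where 6.34% of all genes did not, and Rag2 went from 0.18 in log2 to -0.23 without KO2. In the same way Dntt went from 0.60 to 0.18, Arpp21 from 0.27 to -0.12, Dclre1c from 0.19 to -0.07, Lig4 from 0.17 to -0.16, Xrcc4 from 0.14 to -0.10, Themis from 0.12 to -0.22 and Cd1d1 from 0.11 to 0.06.

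**Figure D5:**
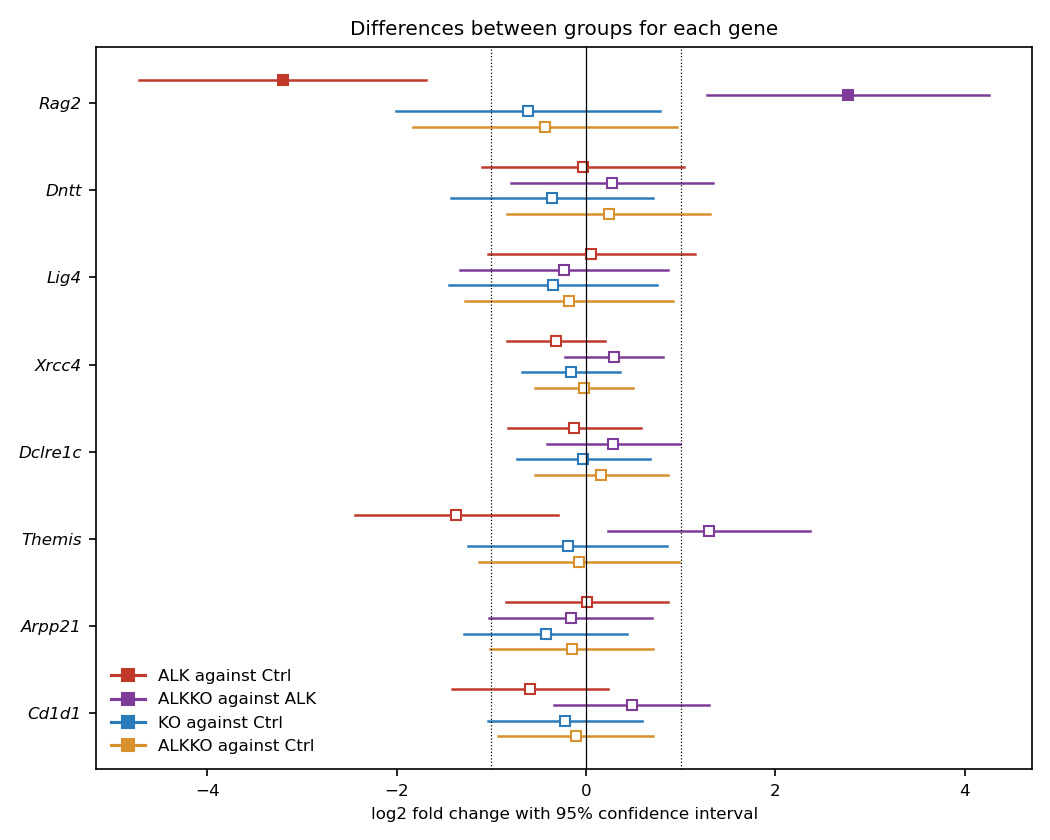
log2 fold change with its 95% confidence interval for the 8 measured genes in 4 comparisons, filled where called, with dotted lines at -1 and 1. The intervals of Rag2 and Themis exclude 0 in ALK against Ctrl and in ALKKO against ALK, and all other intervals drawn include it.

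Compared with the lymphomas, ALKKO thymocytes had 6.83-fold more Rag2, which is 2.77 in log2 (SE 0.67, interval 1.28 to 4.26, adjusted p = 0.013 by edgeR), called under all 21 alternatives. This was the 1 gene of 8 called higher, with 0 lower, where 12.6% of all genes were called higher, 7.03% lower and 19.6% in either direction. Themis differed by 1.30 in log2 (SE 0.48, adjusted p = 0.068 by edgeR, 0.0335 without KO2). Rag2, Themis and Xrcc4 were higher in every ALKKO library than in every ALK library, against 23.7% of all genes higher and 43.2% without overlap in either direction. Dntt differed by 0.27 (SE 0.48), Arpp21 by -0.16 (SE 0.39) and Lig4 by -0.23 (SE 0.50), the last turning to 0.70 without ALK2. Cd1d1 differed by 0.48 (SE 0.37) and was called at 1.17 without ALK3 (adjusted p = 0.00542 by edgeR). Of the other DP stage genes 5 were higher and 2 lower (Cd24a and Ptcra). ALK libraries enter both this comparison and that with Ctrl, so the 2 are not independent.

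Whether NPM-ALK goes with a different change when Dnmt1 is deleted was tested as an interaction, ALKKO against KO set beside ALK against Ctrl. Rag2 was the 1 gene of 8 called, with a difference of 3.38 in log2 (SE 0.91, interval 1.36 to 5.41, adjusted p = 0.043 by edgeR), where 8.93% of all genes were called, 5.62% with a positive and 3.31% with a negative difference. The call was held in 10 of 20 alternatives, with an adjusted p of 0.00197 to 0.0919. Without KO2 it stayed called (adjusted p = 0.0485 by edgeR), and it was lost without any 1 of Ctrl1, Ctrl2, Ctrl3, KO1, KO3, ALK2, ALKKO1, ALKKO2 and ALKKO3. Themis had 1.49 (SE 0.68, adjusted p = 0.182 by edgeR), Dntt 0.63 (SE 0.68) and Arpp21 0.26 (SE 0.55), while Cd1d1 had 0.70 (SE 0.52) and was called at 1.41 without ALK3 (adjusted p = 0.0161 by edgeR). Xrcc4 had 0.45, Dclre1c 0.31 and Lig4 0.11. Without KO2 these differences were 1.18 for Themis, 0.24 for Dntt, -0.11 for Arpp21, 0.68 for Cd1d1, 0.24 for Xrcc4, 0.08 for Dclre1c and -0.20 for Lig4, none of them called.

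The genes whose log2(CPM + 1) followed each pattern most closely over the 12 libraries are given as a description, since libraries of a group share their tissue and KO2 and the lymphomas stand apart. No such gene can be given for Rag1, and Rag2 was used in its place after its values were seen. For Rag2 these were Ets2 (Pearson r = 0.993, Spearman rho = 1), Ly75 (r = 0.983, rho = 0.776) and Agfg2 (r = 0.980, rho = 0.986). In the 8 thymus libraries without KO2, Ets2 kept r = 0.966 and Agfg2 0.791, while Ly75 had 0.163. For Dntt they were Cip2a (r = 0.969, rho = 0.853), A930003A15Rik (r = 0.958, rho = 0.965) and Bhlhb9 (r = 0.957, rho = 0.622), with 0.581, 0.772 and 0.217 in those 8 libraries. For Cd1d1 they were Mir99ahg (r = 0.954, rho = 0.937), Clec2i (r = 0.931, rho = 0.818) and Fermt3 (r = 0.929, rho = 0.776). The same 3 had r = 0.799, 0.684 and 0.438 in the 8 thymus libraries without KO2. Among the 8 measured genes themselves, Dntt was closest to Arpp21 (r = 0.915, and 0.028 in those 8 libraries), Rag2 to Themis (r = 0.795, and 0.546) and Cd1d1 to Themis (r = 0.725, and -0.40), and Rag2 and Dntt had r = 0.348 over 12 libraries, 0.889 in the 9 thymus libraries and -0.55 without KO2.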

How the data were processed

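Stranded poly(A) RNA of 12 mice was sequenced by the authors as single-end reads, trimmed with Trim Galore, aligned to mm10 with STAR and counted per gene with HTSeq, per the labels and the paper. The deposited values are raw read counts, with 50600 gene IDs per library, of which 50376 were matched to GENCODE M21 (GRCm38) without version numbers. Reads that fit several places or genes are in no gene's count. The strand and interval settings of the counting are not given in the sources used here.

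The counts were scaled by TMM and tested with edgeR 4.0.16 (filterByExpr, glmQLFit with robust estimation, glmQLFTest) in R 4.3.3, with 1 term per group over 12 libraries and Benjamini-Hochberg adjustment over 16052 genes. Calls needed both a log2 fold change beyond 1 in size and an adjusted p below 0.05. SEs came from the F statistic, confidence intervals (95%) from its t quantile. Library sizes were 12473857 to 18864327 reads. The floor of 3 counts covers counting error only, as no molecular identifiers were used. Replicates are separate mice.

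Motifs were counted in RefSeq promoter windows. The alternatives were DESeq2 1.42.0 (Wald test, and its size factors in edgeR), upper-quartile scaling, no low-count filter, at least 10 counts in every library, a replicate block, sex or age as covariate, only the 2 groups compared, no fold threshold, and each library left out. The code was tested on simulated counts in which 200 genes changed 4-fold in ALK. Of these, edgeR called 44.5% in ALK against Ctrl, 45.5% in ALKKO against ALK and 24% in the interaction. It made 0 to 3 other calls per comparison. DESeq2 called 62.5%, 67% and 45.5%, with 15 to 65 other calls per comparison. A gene without a call can thus still differ. Figures used matplotlib 3.10.9.

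The genes named are the 9 members, genes of fixed lists counted as a whole, Dnmt1, Alk, Cd1d2, and for 3 members the 3 genes of at least 1 CPM with the highest Pearson r. A gene of the DP stage list and a B cell marker are not reported here and were left out of the list counts, medians and sums. The members and lists were chosen with earlier results of these data known. B230118H07Rik was added after its values were seen.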

Additional observations from a re-analysis of the deposited data

Results flagged for a closer look

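The NPM-ALK difference with Dnmt1 deletion (ALKKO against KO) and without it (ALK against Ctrl) was compared by edgeR's interaction contrast, and the following genes, among the 9 genes and the lists of their pathway and stage, passed the threshold for a difference between these settings. Over all genes tested, 8.93% passed. Rag2, the 1 of 8 tested members that passed, differed by 3.38 in log2, as described above. Of the 13 other end-joining and recombination factors, 0 passed. Of the 11 other DP stage genes 4 passed, with differences of 6.33 for Cd8b1, 5.12 for Ccr9, 4.60 for Cd4 and 3.13 for Bcl2l1. Of the 9 transcription factors linked to Rag transcription, 2 passed with a positive difference, 2.47 for Satb1 and 1.07 for Ets1. Runx1 passed with -1.55. Of the 7 genes of CD1d presentation and iNKT cells, 2 passed, with 4.80 for Zbtb16 and 5.30 for Klrb1c. In ALK, Zbtb16 was at 0.806, 0.175 and 0.547 CPM and Klrb1c at 0.134, 0.349 and 0.0782 CPM. These values are near the floor of 3 counts (0.159 to 0.241 CPM), so the sizes of both differences rest on few reads. In ALKKO, Zbtb16 was at 6.48, 45.2 and 4.73 CPM, the highest in ALKKO2. The calls of Cd8b1, Cd4, Bcl2l1, Satb1 and Klrb1c were held under all alternatives that gave an adjusted p, those of Rag2 in 10 of 20, Runx1 in 12 of 20, Ets1 in 8 of 20, Ccr9 in 8 of 19 and Zbtb16 in 9 of 19. The contrast sets a tumor against thymus in mice with Dnmt1 and thymus against thymus in mice without it, so tumor state and Dnmt1 genotype cannot be told apart in these values. Of the marker lists, 3 of 7 thymic epithelial markers (Psmb11, Prss16 and Foxn1) and 2 of 9 T cell markers (Cd5 and Cd247) passed with a positive difference, of 8 DN progenitor markers Il2rb with a positive and Notch1 and Cd44 with a negative one, and Col1a1 (stroma) and Tcf4 (plasmacytoid dendritic cells) with a negative one. Their part in the differences above was not tested. Groups of 3 mice are too small for the statistical test of a single outlying value that was set for groups of 4 or more.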

How the results depend on the processing

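Calls of the 9 genes rested on Rag2 and changed in number with the settings, while 0 were called in KO against Ctrl, ALKKO against Ctrl and ALKKO against KO under every alternative. In ALK against Ctrl the count of 1 became 2 with the replicate block, sex as a covariate, upper-quartile scaling, the DESeq2 size factors, a minimum of 10 counts per library, and the DESeq2 Wald test (Themis added each time) and 2 with age as a covariate (Cd1d1 added). In ALKKO against ALK it became 2 with DESeq2's Wald test, the replicate block and sex (Themis added) and with age (Cd1d1 added). For the interaction it became 0 without the low-count filter. Leaving out 1 library gave 1 to 2 calls in ALK against Ctrl and in ALKKO against ALK, and 0 to 2 for the interaction. With no fold threshold the counts stayed as they were.

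Signs turned only for differences that were not called. In ALK against Ctrl, Arpp21 took -0.021 with DESeq2 and with its size factors, -0.094 with upper-quartile scaling, -0.039 without the filter and -0.079 with at least 10 counts, Lig4 took -0.052 with upper-quartile scaling, -0.036 with at least 10 counts and -0.013 with the replicate block, and Dntt took 0.16 with age. With sex as a covariate, KO against Ctrl gave 0.058 for Dntt, 0.15 for Themis, 0.083 for Xrcc4 and 0.23 for Dclre1c, ALKKO against KO gave -0.23 for Rag2, -0.22 for Themis, -0.12 for Arpp21, -0.16 for Lig4, -0.10 for Xrcc4 and -0.071 for Dclre1c, and the interaction gave -0.13 for Arpp21 and -0.22 for Lig4. Cd1d1 in ALKKO against KO took -0.056 with age. KO2 is the only female library, so the sex term removes it from the KO estimate, and the cause of the other turns was not tested.

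With 1 library left out, the ranges of the differences that turned were as follows. In ALK against Ctrl they were -0.54 to 0.24 for Dntt, -0.19 to 0.16 for Arpp21, -0.89 to 0.40 for Lig4 and -0.44 to 0.12 for Dclre1c. In KO against Ctrl they were -0.73 to 0.062 for Dntt, -0.45 to 0.15 for Themis, -0.35 to 0.086 for Xrcc4 and -0.34 to 0.24 for Dclre1c. In ALKKO against Ctrl they were -0.30 to 0.018 for Cd1d1 and -0.13 to 0.056 for Xrcc4. In ALKKO against KO they were -0.23 to 0.48 for Rag2, -0.22 to 0.37 for Themis, -0.12 to 0.57 for Arpp21, -0.065 to 0.26 for Cd1d1, -0.16 to 0.40 for Lig4, -0.10 to 0.33 for Xrcc4 and -0.071 to 0.49 for Dclre1c. In ALKKO against ALK they were -0.0065 to 0.77 for Dntt, -0.32 to 0.031 for Arpp21 and -0.59 to 0.70 for Lig4, and for the interaction -0.11 to 0.58 for Arpp21 and -0.24 to 1.06 for Lig4.

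Of 18 pairs of libraries that share a replicate number, 5 had a correlation of deviations above 0.1 (range -0.14 to 0.45). Pairs with unlike numbers were not compared, so these values cannot show whether the numbers pair the mice. The replicate block is given as an alternative. With 3 mice a group an exact permutation test cannot pass 0.05. Of the measured genes Xrcc4 had the fewest reads, 193 to 584 per library.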
